A study of Mus musculus with 71 samples.

Results

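Loss of the histone methyltransferase G9a in the mouse forebrain changed 101 of 12380 tested genes by an amount that differed between hippocampus, hypothalamus and striatum. That is 0.816% of the genes tested, at an adjusted p of at most 0.05. The genes were found by a region by genotype interaction, which asks of each gene whether the mutant minus control difference of its log2 level was the same in the 3 regions. The test used 23 of the 71 expression arrays of the study, all made from total RNA of whole tissue. Hippocampus had 4 mutant and 3 control arrays, and hypothalamus and striatum had 4 of each.

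The mutants were Camk2a-Cre; G9afl/fl mice, which carry 2 floxed G9a alleles and Cre recombinase under the Camk2a promoter. The controls were G9afl/fl littermates of the same age and sex, so both groups carried the floxed alleles and only the mutants carried Cre. The mice were 10 to 14 weeks old by the study's design and 12 weeks old by its extraction protocol. The Camk2a promoter is active in postnatal forebrain neurons, so glia, vessels and other neurons of the same tissue kept G9a. In whole tissue, fewer cells of a type and less RNA per cell cannot be told apart. The labels do not say whether arrays of the same number in different regions came from 1 mouse, and each array was treated as a separate sample. The adjusted p-values therefore measure the spread between these arrays.

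G9a, encoded by Ehmt2, and its partner GLP, encoded by Ehmt1, form a complex that places 1 or 2 methyl groups on lysine 9 of histone H3 at silent genes. The mark is read by repressive proteins, and genes of other tissues or of other developmental stages are among those it keeps low in neurons. A gene that rises on loss of the enzyme in 1 region and not in another has a regional response, whatever the level at which it started. The comparison of the 3 regions asks which genes respond in this way, and sets their response beside their level in control tissue of each region.

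Levels are given on the log2 scale relative to the median probe set of each array, so a level of 0 is the array median and a level of 1 is 2-fold above it. A change is the mean level in mutants minus the mean level in controls of the same region, with its standard error (SE) from a linear model fitted with limma. Where the lower group lay below the array median, the fold is given as "at least", set against the median in place of the lower group. All adjusted p-values are Benjamini-Hochberg values over the 12380 genes tested.

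Ehmt2 checked the labels. Its level in hippocampus was 3.88, 4.21, 4.10 and 4.31 in mutants and 5.46, 4.95 and 5.47 in controls. In hypothalamus it was 4.27, 3.53, 4.00 and 4.08 against 5.42, 5.00, 5.01 and 4.54, and in striatum 3.89, 4.16, 3.94 and 4.02 against 5.43, 5.41, 4.77 and 5.52. No mutant array reached the lowest control array of its region. The change was -1.17 ± 0.20 (SE) in hippocampus, -1.02 ± 0.19 in hypothalamus and -1.28 ± 0.19 in striatum (adjusted p = 0.00109, 0.005 and 0.000134). Taken back from the log2 scale, these changes left 44.6%, 49.2% and 41.1% of the control level. These values are of the brighter probe set of Ehmt2. Another probe set of the gene lay near the array median and differed less. Its mean was 0.25 in controls and -0.28 in mutants of hippocampus, -0.16 and -0.33 in hypothalamus, and -0.17 and -0.38 in striatum. The size of the Ehmt2 fall was not called different between regions (adjusted p of the interaction 1), which does not show that it was the same. Ehmt1 lay between 2.06 and 2.85 in all arrays and passed in no region (adjusted p = 0.903, 0.217 and 0.305). Camk2a, whose promoter drives Cre, differed by region in level, from 7.03 to 7.97 in hippocampus, 6.03 to 6.72 in striatum and 3.82 to 4.77 in hypothalamus, and its level passed between genotypes in none of them (adjusted p = 0.995, 0.952 and 0.837).

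Several arrays stood apart from their group. Hypothalamus mutant 2 differed from the mean of the other arrays of its group with a standard deviation (SD) of 0.631 over genes, against 0.208 to 0.408 for the other 22 arrays. Without it 422 genes passed in place of 101, and all 101 were among them. The mean of 7 measured excitatory forebrain neuron markers in striatum was 2.86, 2.73, 2.30 and 2.29 in mutants and 0.42, 0.52, 2.87 and 0.89 in controls, so control 3 lay among the mutants and the other 3 controls lay below them. Of these 7 markers 3 rose in G9a striatum (Neurod2, Neurod6 and Tbr1), and the marker mean did not separate the genotypes in hippocampus (5.39 to 5.68 against 5.62 to 5.71) or hypothalamus (1.85 to 2.52 against 1.99 to 2.38). With this mean as a covariate, a choice made after the data were seen, 57 genes passed, all of them among the 101. Striatum control 1 had a choroid plexus marker mean of -0.64, against 1.71 to 3.14 in the other striatum controls. Of 27 combinations of a marker list and a G9a region, the marker mean separated the genotypes in 3. The choroid mean was -0.04 to 0.48 in mutants and -0.44 to -0.21 in controls of hippocampus, and -0.06 to 0.19 against -0.24 to -0.12 in hypothalamus, and 1 of 18 tested choroid and ependyma markers rose in each. The endothelial and mural mean was 2.55 to 2.74 in mutants and 2.83 to 2.88 in controls of striatum, where none of 14 tested markers passed, and its part in the striatal results was not tested. With the choroid mean as a covariate 95 of the 101 genes passed, among them all 25 whose change lay above that of both other regions in hippocampus. This covariate is itself correlated with genotype in hippocampus, and its widest range, -0.64 to 3.14, lay in striatum. The part of the choroid difference in the hippocampal results was not tested beyond it. The meningeal marker mean in hippocampus was 1.64 to 2.96 in mutants and 1.23 to 1.75 in controls, with 2 of 17 tested markers up, and its part in the hippocampal results was not tested. The pituitary marker mean in hypothalamus was -1.70, 0.28, -0.71 and -1.82 in mutants and -1.51, -2.53, -2.79 and -1.90 in controls. Mutants 2 and 3 thus lay above every control, while mutants 1 and 4 lay among the controls. The 2 tested pituitary markers had a median change of 3.99 in hypothalamus and none passed. The part of this difference in the hypothalamic results was not tested. None of the 9 cell type marker lists held a gene among the 101. By Xist, each group of 4 arrays held 2 from females and 2 from males, and the hippocampus controls held 1 female and 2 males.

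Rises outnumbered falls among the 101 genes in each region. In hippocampus 46 rose and 6 fell, against 1.37% and 0.242% of all tested genes. In hypothalamus 16 rose and 2 fell, against 0.614% and 0.178%, and in striatum 52 rose and 6 fell, against 1.67% and 0.582%. The same arrays chose the genes, so these counts describe them and support nothing further. The change passed in 1 region for 64 genes, in 2 regions for 26, in all 3 for 4 and in none for 7. No gene passed in opposite directions in 2 regions. The largest of the 3 changes lay in striatum for 47 genes, in hippocampus for 46 and in hypothalamus for 8. The number of hypothalamic calls depends on 1 array. Without hypothalamus mutant 2, 1608 genes passed in hypothalamus in place of 98, beside 283 in hippocampus and 395 in striatum. These counts therefore do not rank the regions by their response. By unadjusted pair differences, 25 genes had a change in hippocampus above that in both other regions, 23 in striatum above and 5 in hypothalamus above. A change above the others can also be a smaller fall, as for Fst in hypothalamus. The change lay below that of both other regions for 5 genes in hippocampus, 7 in hypothalamus and 7 in striatum, and all 3 regions differed for 29. At the threshold, Utrn was the last gene inside (adjusted p = 0.0497) and Kif22 the first outside (0.0505). Of the 101 genes, 4 have only clone or predicted names.

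**Figure D1:**
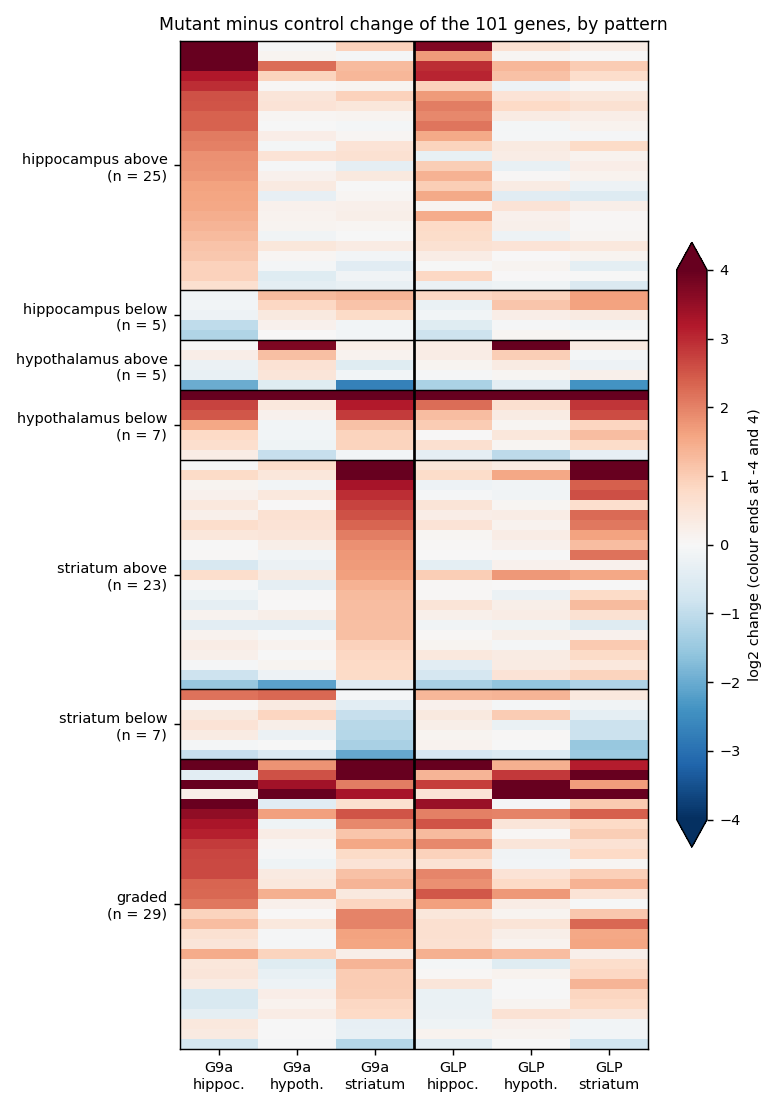
Mutant minus control log2 change of the 101 genes (rows, grouped by pattern) in the 3 regions of G9a mice (left) and of GLP mice (right); colours end at -4 and 4. The rows of the 25 genes with hippocampus above are mostly red in the G9a hippocampus column, and 18 of these genes rose in GLP hippocampus. Those of the 23 with striatum above are mostly red in the G9a striatum column, and 14 of these genes rose in GLP striatum. The GLP columns, which played no part in choosing the genes, are paler.

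The 3 genes of smallest p, Afp, Gprc5d and Corin, rose in 1 region from a level below the array median. Afp, which encodes alpha-fetoprotein, a plasma protein of fetal liver, had the smallest p of all. Its level in striatum was 3.89, 4.21, 3.54 and 3.93 in mutants and -2.29, -2.84, -2.46 and -2.51 in controls. All 15 arrays of hippocampus and hypothalamus lay between -3.33 and -1.11, in both genotypes. Afp thus went from far below the array median to far above it in striatum, and the change there was 6.41 ± 0.29, at least 14.8-fold. The change was -0.04 ± 0.31 in hippocampus and 0.74 ± 0.29 in hypothalamus, and the interaction passed with an adjusted p of 1.21e-09.

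Gprc5d, an orphan G protein-coupled receptor, showed the same contrast with hippocampus in the place of striatum. It was at 1.16, 1.00, 0.95 and 0.68 in hippocampus mutants and at -3.64, -3.40 and -3.65 in hippocampus controls. The 16 arrays of the other regions lay between -3.88 and -3.06. The change was 4.51 ± 0.22 in hippocampus, 0.12 ± 0.21 in hypothalamus and -0.06 ± 0.21 in striatum (adjusted p of the interaction 1.21e-09), and the hippocampal rise was at least 1.93-fold.

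Corin, the membrane protease that activates the heart hormone atrial natriuretic peptide, was the third. Its level in striatum was 4.21, 3.89, 3.35 and 4.07 in mutants and -1.71, -1.50, -1.79 and -0.79 in controls. In hippocampus it ranged from -0.86 to 0.16 in mutants and from -1.60 to -0.66 in controls, and in hypothalamus from -0.30 to 0.12 and from -0.82 to -0.30. The change was 5.33 ± 0.26 in striatum, at least 14.7-fold, against 0.75 ± 0.28 and 0.45 ± 0.26 elsewhere (adjusted p of the interaction 8.68e-09).

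The sequences upstream of these 3 genes are shown because their regional response was the clearest. Each is the 250 bases before the gene's start in RefSeq (GRCm38.p6), 5′ to 3′ on the gene's strand, with CG dinucleotides, the site of DNA methylation, in capitals. Afp lies on the plus strand at chr5:90490464-90490713, Gprc5d on the minus strand at chr6:135118284-135118533 and Corin on the minus strand at chr5:72504541-72504790.
Afp: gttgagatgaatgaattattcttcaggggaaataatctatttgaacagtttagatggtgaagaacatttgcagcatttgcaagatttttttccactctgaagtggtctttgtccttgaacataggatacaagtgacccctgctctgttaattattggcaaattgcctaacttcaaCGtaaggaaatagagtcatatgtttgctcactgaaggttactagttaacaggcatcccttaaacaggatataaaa
Gprc5d: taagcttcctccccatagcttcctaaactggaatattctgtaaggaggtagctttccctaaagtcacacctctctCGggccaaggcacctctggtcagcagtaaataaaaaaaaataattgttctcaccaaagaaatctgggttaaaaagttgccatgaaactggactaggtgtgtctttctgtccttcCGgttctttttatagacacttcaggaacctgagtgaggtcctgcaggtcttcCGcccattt
Corin: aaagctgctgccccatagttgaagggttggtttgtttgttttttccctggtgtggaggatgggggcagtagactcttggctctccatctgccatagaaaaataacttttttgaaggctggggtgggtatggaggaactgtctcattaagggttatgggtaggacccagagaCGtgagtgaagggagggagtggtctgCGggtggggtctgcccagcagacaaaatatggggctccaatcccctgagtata
Afp holds 1 CG in this stretch, Gprc5d 3 and Corin 2. Over the 10001 tested genes with a listed promoter the median was 16, and 7.8% had 3 or fewer, while 99.0% had at least 1. A promoter was listed for 78 of the 101 genes (77.2%) and for 80.8% of all tested genes, and the 101 were not compared with the rest.

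Cyp2c23, a cytochrome P450, passed in striatum alone. It was at 1.62, 1.56, 2.15 and 2.13 in striatum mutants and at -1.71, -1.19, -1.60 and -1.15 in striatum controls, while the other 15 arrays lay between -2.97 and -2.47. The striatal change was 3.28 ± 0.19, at least 3.65-fold, against 0.11 ± 0.21 in hippocampus and -0.12 ± 0.19 in hypothalamus (adjusted p of the interaction 2.78e-08). Serpinb5, which encodes the protease inhibitor family protein maspin, changed by 2.94 ± 0.30 in striatum, 0.17 ± 0.32 in hippocampus and 0.43 ± 0.30 in hypothalamus (adjusted p = 0.00063). With low values raised to the array median, the hippocampus minus striatum difference of Serpinb5 was -0.52 and its interaction was lost (adjusted p = 0.322).

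Mettl24, a methyltransferase-like gene, rose in hippocampus. Its level there was 2.73, 3.63, 3.87 and 4.11 in mutants and -0.35, -0.49 and -0.23 in controls. In hypothalamus it was -1.41 to -0.78 in mutants and -0.95 to -0.47 in controls, and in striatum -0.98 to 0.44 and -1.10 to -0.84. The groups overlapped in these last 2 regions. The change was 3.94 ± 0.30 in hippocampus, at least 12.0-fold, -0.46 ± 0.27 in hypothalamus and 0.64 ± 0.27 in striatum (adjusted p of the interaction 9.54e-07). Ido2, an enzyme of tryptophan breakdown, changed by 2.95 ± 0.31 in hippocampus and by 0.05 ± 0.28 and 0.10 ± 0.28 in hypothalamus and striatum (adjusted p = 0.000199). With low values raised to the array median, its hippocampus minus hypothalamus difference was 1.15 and the interaction was lost (adjusted p = 0.104). Tyrp1, which acts in the synthesis of melanin, rose in hippocampus by 4.39 ± 0.44 and in hypothalamus by 2.24 ± 0.41. Its striatal change was 1.28 ± 0.41 (adjusted p of the interaction 0.0194), and the interaction was lost without any 1 of hippocampus mutant 2, mutant 4, control 1 or control 3 (adjusted p = 0.0513 to 0.0692).

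Adh6b, an alcohol dehydrogenase, passed in hypothalamus and not in the other regions. Its level there was 1.75, 2.24, 2.51 and 1.74 in mutants and -2.08, -0.79, -2.06 and -1.83 in controls. The 15 arrays of hippocampus and striatum lay between -3.06 and -1.65 in both genotypes. The change was 3.75 ± 0.27 in hypothalamus, at least 4.17-fold, -0.00 ± 0.29 in hippocampus and 0.26 ± 0.27 in striatum (adjusted p of the interaction 1.48e-06). Adgre1, which encodes the macrophage surface protein F4/80, rose in hypothalamus by 1.21 ± 0.12 and changed by 0.25 ± 0.13 and 0.14 ± 0.12 in hippocampus and striatum (adjusted p = 0.0012). Of the 16 tested microglia and macrophage markers, a list that does not hold Adgre1, none rose or fell in hypothalamus.

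Nxf3, an RNA export factor of the testis, rose in both hypothalamus and striatum. In hypothalamus it was at 1.33, 2.01, 2.03 and 2.12 in mutants against -2.71, -2.44, -1.70 and -2.16 in controls. In striatum it was at 1.08, 0.70, 0.73 and 0.80 against -2.55, -2.26, -2.59 and -2.48, and the 7 hippocampus arrays lay between -2.60 and -1.95. The change was 4.13 ± 0.21 in hypothalamus, 3.29 ± 0.21 in striatum and 0.22 ± 0.23 in hippocampus (adjusted p of the interaction 9.88e-08). Both rises began below the array median and were at least 3.67-fold and 1.77-fold.

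**Figure D2:**
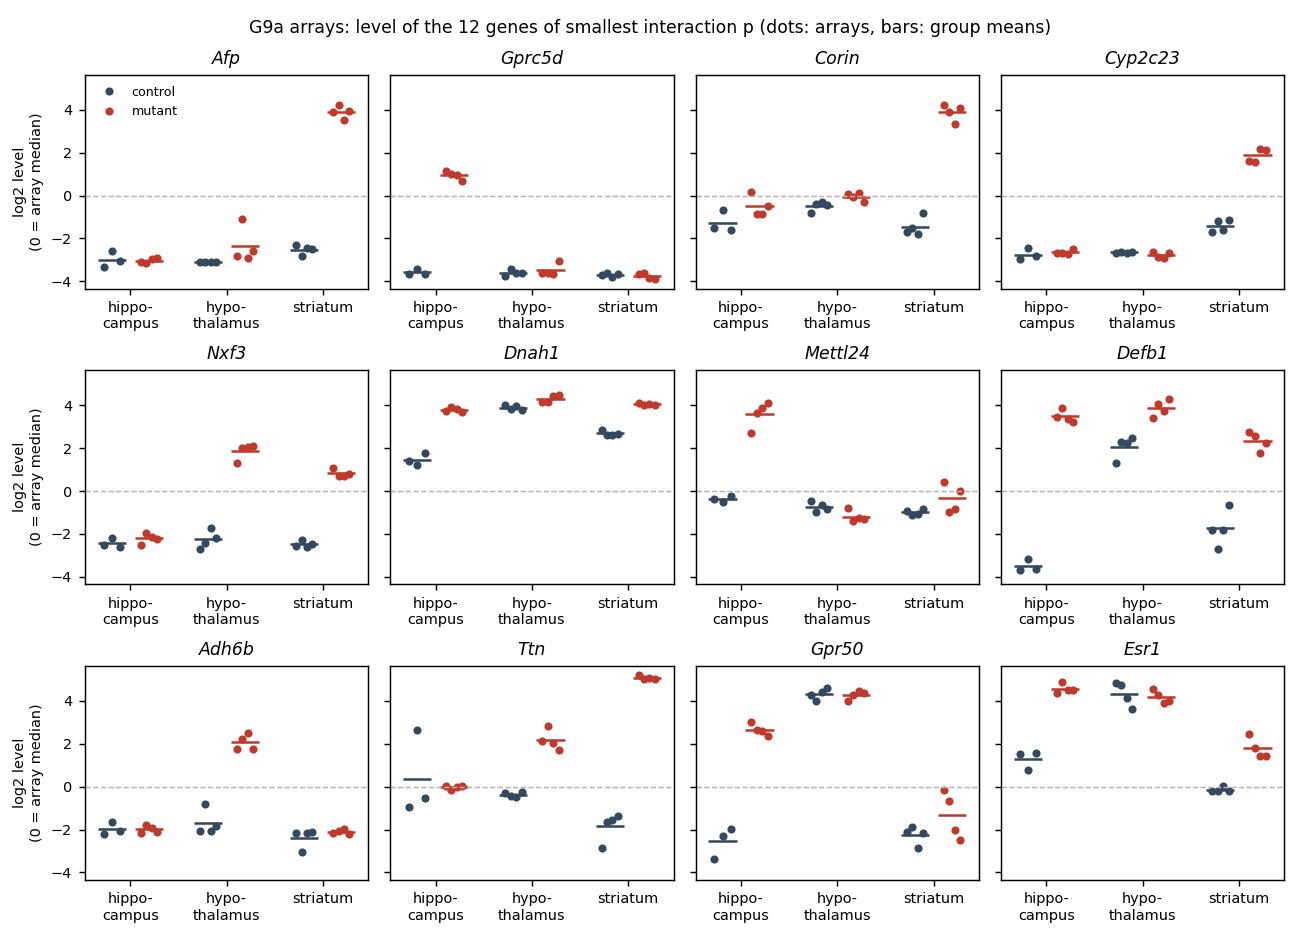
Log2 level (vertical axis, 0 is the array median) of the 12 genes of smallest interaction p in every G9a array of the 3 regions, with mutants in red, controls in blue and bars at the group means. Afp, Corin and Cyp2c23 are high only in striatum mutants, Gprc5d and Mettl24 in hippocampus mutants and Adh6b in hypothalamus mutants, while Gpr50 and Esr1 are already high in hypothalamus controls.

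A second kind of regional difference came from genes whose control level was high in 1 region and low in another. By GLP control levels, given below, rises of this kind were no more frequent among the genes called than among other genes that rose. Gpr50, a melatonin receptor-related protein of the hypothalamus, was at 3.01, 2.64, 2.59 and 2.37 in hippocampus mutants and at -3.38, -2.29 and -1.97 in hippocampus controls. In hypothalamus it was between 3.97 and 4.62 in all 8 arrays, and the genotypes overlapped. In striatum the mutants were at -0.14, -0.68, -2.02 and -2.51 and the controls at -2.10, -1.89, -2.86 and -2.16, which also overlapped. The change was 5.19 ± 0.40 in hippocampus, at least 6.28-fold, -0.05 ± 0.37 in hypothalamus and 0.92 ± 0.37 in striatum (adjusted p of the interaction 4.32e-06). The mutant hippocampus, at a mean of 2.65, stayed below the control hypothalamus at 4.32.

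Esr1, the estrogen receptor alpha, was at 4.36, 4.86, 4.51 and 4.51 in hippocampus mutants and at 1.54, 0.77 and 1.55 in controls. In striatum it was at 2.45, 1.80, 1.44 and 1.45 against -0.20, -0.22, 0.03 and -0.19, and in hypothalamus all 8 arrays lay between 3.64 and 4.84. Hippocampus mutants thus lay among the upper hypothalamus arrays. The change was 3.27 ± 0.26 in hippocampus, a 9.67-fold rise, 1.93 ± 0.24 in striatum and -0.16 ± 0.24 in hypothalamus (adjusted p of the interaction 8.93e-06). Gpr50 and Esr1 were the only members of a list of 44 hypothalamus-enriched genes, of which 31 were tested, among the 101. In hippocampus 2 genes of that list rose and the median change of the 31 was -0.08, against 0.03 over all tested genes.

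Defb1, a beta defensin of epithelia, rose in all 3 regions, from the lowest start in hippocampus. The hippocampus mutants were at 3.46, 3.89, 3.35 and 3.21 and the controls at -3.67, -3.18 and -3.63. The hypothalamus mutants were at 3.42, 4.07, 3.75 and 4.30 and the controls at 1.30, 2.28, 2.23 and 2.49, and the striatum mutants at 2.74, 2.56, 1.80 and 2.24 and the controls at -1.80, -2.68, -1.81 and -0.63. The controls differed more between regions than the mutants did. The change was 6.97 ± 0.35, 1.81 ± 0.32 and 4.06 ± 0.32 in hippocampus, hypothalamus and striatum (adjusted p of the interaction 1.48e-06).

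Dnah1, an axonemal dynein heavy chain, ended at nearly the same level in all mutants. The mutants were at 3.75, 3.93, 3.81 and 3.67 in hippocampus, 4.15, 4.17, 4.42 and 4.50 in hypothalamus and 4.09, 4.02, 4.05 and 4.01 in striatum. The controls were at 1.41, 1.20 and 1.77 in hippocampus, 4.00, 3.84, 3.94 and 3.79 in hypothalamus and 2.87, 2.63, 2.61 and 2.65 in striatum. The change followed the reverse order of the control level, at 2.33 ± 0.12 in hippocampus, 1.35 ± 0.11 in striatum and 0.41 ± 0.11 in hypothalamus (adjusted p of the interaction 8.76e-07). Only the first 2 passed, with the hypothalamic change at an adjusted p of 0.108.

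Dach2, a transcription cofactor of muscle and nervous system development, rose strongly everywhere and was called because hypothalamus rose less. Hippocampus mutants were at 5.20, 5.08, 4.96 and 5.13 and controls at -0.48, -1.68 and -0.61. Hypothalamus mutants were at 5.01, 5.57, 5.27 and 5.44 and controls at 0.90, 0.92, 1.66 and 1.45, and striatum mutants were at 4.71, 4.71, 4.33 and 4.51 and controls at -1.69, -1.23, -1.74 and -1.03. The hypothalamus controls were the only ones above the array median. The change was 6.01 ± 0.24, 4.09 ± 0.22 and 5.99 ± 0.22, at least 34.1-fold, 17.0-fold and at least 23.7-fold (adjusted p of the interaction 0.000922). Bank1, a B cell scaffold protein, also rose in hippocampus (2.71 ± 0.32) and striatum (3.18 ± 0.30), with 0.43 ± 0.30 in hypothalamus (adjusted p = 0.000947).

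Other genes of the same kind, chosen after their values were seen, were Scn7a, Patj and Zfp941. Scn7a, a sodium channel, had a hypothalamus control mean of 2.42 against -1.0 in hippocampus, and changed by 3.21 ± 0.23 in hippocampus and 0.88 ± 0.21 in hypothalamus. Patj, a cell polarity protein, had a control mean of 4.26 in hypothalamus and 0.27 in hippocampus, and changed by 1.78 ± 0.24 in hippocampus and -0.04 ± 0.23 in hypothalamus. Zfp941, a zinc finger protein, had a control mean of 3.64 in hypothalamus, 0.78 in hippocampus and 1.41 in striatum, and rose by 1.55 ± 0.19 in hippocampus and 1.18 ± 0.18 in striatum, with -0.11 ± 0.18 in hypothalamus.

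**Figure D3:**
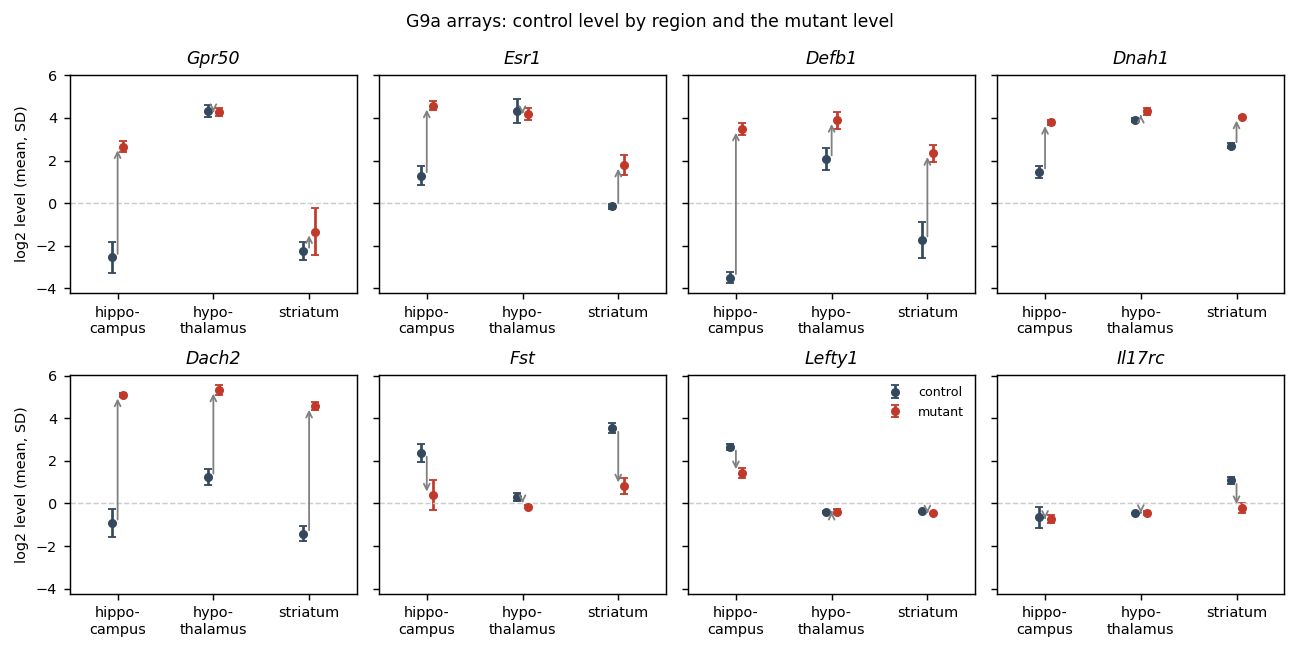
Mean log2 level (vertical axis, error bars SD over 3 or 4 arrays) of 8 genes in controls (blue) and mutants (red) of each region, with an arrow from control to mutant. For Gpr50, Esr1, Defb1, Dnah1 and Dach2 the hypothalamus control is the highest of the 3 controls and its arrow the shortest, and for Fst, Lefty1 and Il17rc the longest fall starts from the highest control. The 8 genes were picked by hand and do not show how common these pictures are. Lrrc10b, not shown, fell in hippocampus and was highest in striatum. Each change and its control level share the same control arrays.

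The control levels were then read from the GLP controls, which are arrays of other mice and played no part in the choice of genes. Of the 84 genes whose largest change was a rise that passed, 30 were below the array median in the GLP controls of all 3 regions. For 27 the region of the rise had a control level at least 1 log2 unit below another region, for 22 it was within 1 unit of the highest, and for 5 it was the highest by more. Among the 280 other genes whose largest G9a change was a rise that passed, the same counts were 30, 120, 109 and 21. Genes whose region of the rise was lower than another region made up 32.1% of the regional rises and 42.9% of the others. This kind was thus not more frequent among the regional rises. Genes low in all regions made up 35.7% of the regional rises and 10.7% of the others. The filter bears on this share, because 26 of the 101 genes (25.7%) lay below the array median in every G9a control. They were tested only through mutants that lay above every control, so that some rise was built into their choice. Such genes were 56 of all tested genes (0.452%). The filter alone did not make their change differ between regions. The control level itself differed between regions in the GLP controls for 88 of the 101 (87.1%), close to the 80.4% of all tested genes.

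Over the 101 genes the difference of the change and the difference of the GLP control level between 2 regions had a Spearman coefficient of -0.25 for hippocampus minus hypothalamus, 0.05 for hippocampus minus striatum and -0.28 for hypothalamus minus striatum. Over all tested genes the coefficients were -0.28, -0.29 and -0.21. These are correlations across genes of the same arrays, which are not independent replicates. The coefficients of the 101 were near those of all tested genes for both pairs with hypothalamus, and not for hippocampus minus striatum.

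Falls were few, and most lay where the gene was highest. Of the 10 genes whose largest change was a fall that passed, 7 had their highest GLP control level in the region of the fall, 2 were within 1 unit of the highest and 1 was lower than in another region. Among the 95 other genes of this kind, 22 were highest, 55 within 1 unit, 14 lower and 4 below the median in all regions. A gene near the floor in a region has little room to fall there. Genes chosen for a fall that differs between regions therefore tend to be highest where they fell, and these counts only describe them. Fst encodes follistatin, which binds and blocks activin. Its control mean was 3.53 in striatum, 2.36 in hippocampus and 0.32 in hypothalamus, and its change was -2.71 ± 0.25 in striatum, -1.97 ± 0.27 in hippocampus and -0.47 ± 0.25 in hypothalamus (adjusted p of the interaction 0.00248). Inhba, the activin beta A subunit, was chosen after its values were seen. It fell by 1.15 ± 0.14 on the log2 scale in striatum and by 0.69 ± 0.15 in hippocampus, with -0.04 ± 0.14 in hypothalamus.

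Lefty1, a Nodal antagonist, belongs to a list of hippocampus-enriched genes. It was at 1.22, 1.24, 1.62 and 1.66 in hippocampus mutants and at 2.66, 2.77 and 2.51 in controls, and the other 16 arrays lay between -0.52 and -0.28. It fell by 1.21 ± 0.13 on the log2 scale in hippocampus, to a level 2.31-fold lower, with 0.01 ± 0.12 and -0.10 ± 0.12 elsewhere (adjusted p of the interaction 0.000422). Lefty1 was the only member of that list of 25 tested genes among the 101.

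Lrrc10b, a leucine-rich repeat gene of a striatum-enriched list, fell in hippocampus and not in striatum, where it was highest. It was at 3.94, 4.10, 4.54 and 4.11 in hippocampus mutants and at 5.11, 5.51 and 4.91 in controls. In striatum the mutants were at 7.37, 7.02, 6.95 and 7.14 and the controls at 7.31, 7.31, 7.19 and 7.16, and the hypothalamus arrays lay between 0.50 and 1.37. The change was -1.0 ± 0.17 in hippocampus, 0.18 ± 0.16 in hypothalamus and -0.12 ± 0.16 in striatum (adjusted p of the interaction 0.0224). The interaction was lost without any 1 of hippocampus mutant 1, mutant 2, mutant 4 or control 2 (adjusted p = 0.0565 to 0.114).

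In striatum, Il17rc, a subunit of the interleukin-17 receptor, changed by -1.28 ± 0.17 (adjusted p of the interaction 0.00725), and Reep6, an endoplasmic reticulum protein, by -2.05 ± 0.19 (0.0109). The change of Il17rc was -0.06 ± 0.19 and -0.01 ± 0.17 in hippocampus and hypothalamus, and that of Reep6 was -0.92 ± 0.21 and -0.57 ± 0.19. Gask1b passed the interaction (0.0203) with a striatal change of -0.92 ± 0.25 that itself did not pass (0.0527). It was lost without striatum mutant 1 (adjusted p = 0.0661) or striatum mutant 3 (0.0624), and with the mean of all its probe sets (0.114). With the excitatory marker mean as a covariate the interactions of Il17rc, Reep6, Gask1b and Lrrc10b were lost (adjusted p = 0.139, 0.112, 0.234 and 0.0546), as were those of Tyrp1 (0.063), Casq2 (0.302), Myo3b (0.0812) and Tshz2 (0.126).

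Muscle genes made up the largest share of any list, with 6 of 16 tested genes among the 101, against 0.816% of all tested genes, and their regions differed. Only 16 of 29 measured muscle genes passed the filter, and Myh8, Chrna1 and Myh1 lay below the array median in every control. These 3 passed it only through mutants that lay above every control, so some rise was built into their choice. The median and counts that follow are of the 16 tested muscle genes. The median change of the 16 was 0.51 in hippocampus, 0.70 in hypothalamus and 0.86 in striatum, against 0.03, 0.01 and -0.00 over all tested genes. Of the 16, 7, 6 and 7 rose, against 1.37%, 0.614% and 1.67% of all tested genes, while 1 fell, in striatum. Ttn, the giant spring protein of the sarcomere, was at 5.19, 5.00, 5.08 and 5.03 in striatum mutants and at -2.86, -1.65, -1.55 and -1.36 in controls. In hypothalamus it was at 2.11, 2.84, 2.02 and 1.71 against -0.31, -0.43, -0.51 and -0.24, and in hippocampus at 0.05, -0.15, -0.04 and 0.01 against -0.97, 2.62 and -0.51. Striatum and hypothalamus separated the genotypes and hippocampus did not, where control 2 stood far above the rest. The change was 6.93 ± 0.47 in striatum, at least 33.7-fold, 2.54 ± 0.47 in hypothalamus and -0.41 ± 0.51 in hippocampus (adjusted p of the interaction 1.97e-06). Without hippocampus control 2 the hippocampal change turned from -0.41 to 0.71 ± 0.30 and did not pass (adjusted p = 0.522), and the hippocampus minus striatum difference was -6.22 in place of -7.34.

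Myh8, the perinatal skeletal myosin heavy chain, had the reverse pattern. It was at 1.10, 1.28, 1.17 and 0.91 in hippocampus mutants against -1.23, -1.37 and -0.55 in controls. In hypothalamus it was at 1.22, 1.68, 1.04 and 0.49 against -1.64, -1.09, -1.16 and -0.85, and in striatum the 8 arrays lay between -1.92 and -1.47 and overlapped. The change was 2.16 ± 0.24 in hippocampus, 2.30 ± 0.22 in hypothalamus and -0.05 ± 0.22 in striatum (adjusted p of the interaction 0.000102). Its neighbour on chromosome 11, Myh1, an adult fast myosin with 1 gene between them, changed by 4.46 ± 0.35, 3.37 ± 0.33 and 2.05 ± 0.33. Tnnt2, cardiac troponin T, rose in all regions (3.56 ± 0.26, 1.65 ± 0.24 and 2.50 ± 0.24, adjusted p of the interaction 0.0178), and its interaction was lost without hippocampus control 2 (adjusted p = 0.0591), with the mean of all its probe sets (0.0562) and with low values raised to the array median (0.41). Casq2, the cardiac calsequestrin, rose in striatum (1.24 ± 0.20, adjusted p = 0.0098), and Chrna1, the muscle acetylcholine receptor alpha subunit, in hippocampus (1.74 ± 0.24, adjusted p = 0.022). Myh1 and Chrna1 are given although the rule for named genes took 4 per list. The muscle list and the other lists were written with earlier results of these data known.

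Of 12 tested liver and plasma protein genes 3 were among the 101, 1 for each region, against 0.816% of all tested genes. All 3 lay below the array median in every control and passed the filter only through mutants above every control, so some rise was built into their choice. These are Afp in striatum, Adh6b in hypothalamus and Fbp1, a gluconeogenic enzyme, in hippocampus (2.69 ± 0.24, with -0.05 ± 0.22 and 0.77 ± 0.22 in hypothalamus and striatum, adjusted p of the interaction 8.62e-05). With low values raised to the array median, the hippocampus minus hypothalamus difference of Fbp1 was 0.37 and its interaction was lost (adjusted p = 0.576). The lists of 26 tested H3K9 methylation genes, 19 immediate early genes, 21 innate immune genes and 14 genes beside Camk2a held none of the 101. The list of 45 regional transcription factors held Dach2 and Tshz2, a zinc finger factor that rose in hippocampus by 1.84 ± 0.22 (adjusted p of the interaction 0.0459). The interaction of Tshz2 passed in 11 of the 23 fits that left out 1 array, and the largest adjusted p, 0.16, came without hippocampus control 2. It was also lost in 8 of 14 other settings, with adjusted p-values of 0.0507 to 0.126, among them both replicate blocks (0.102 within genotype and 0.0507 by number alone). Myo3b, an unconventional myosin, rose in hypothalamus (1.27 ± 0.21) and striatum (1.37 ± 0.21), with -0.16 ± 0.23 in hippocampus. Its interaction (adjusted p = 0.0182) was lost without hippocampus mutant 1, control 1 or control 2 (0.0522, 0.0646 and 0.0839), and with a replicate block within genotype (0.0701). The 101 genes held 2 other pairs of direct neighbours, Ttn with Ccdc141 on chromosome 2 and Zfp941 with Urah on chromosome 7.

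Among the 23 genes with striatum above, the excitatory marker mean moved with the result for some and not for others. Grp, the gastrin-releasing peptide precursor, was at 0.56, 1.49, 1.17 and 0.77 in striatum mutants and at -2.49, -2.25, -0.99 and -1.05 in controls. In hippocampus it was at 4.93, 5.02, 5.04 and 5.57 against 4.65, 4.70 and 4.76, and in hypothalamus the 8 arrays lay between 1.97 and 3.78. Its striatal change was 2.69 ± 0.34 (adjusted p of the interaction 0.00506), and with the marker mean as a covariate the interaction had an adjusted p of 0.222 and the striatal change was 2.25. Without striatum control 3 the change was 2.93 (0.00164). The interaction was also lost with all 59 whole-tissue arrays in the fit (adjusted p = 0.0651) and with low values raised to the array median (0.633, at a hypothalamus minus striatum difference of -0.98). With the same covariate 9 of the 23 passed, and Afp, Corin and Cyp2c23 had adjusted p-values of 2.85e-07, 8.59e-07 and 1.86e-06. Their striatal changes were then 6.41, 5.47 and 3.44.

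Some of the 23 genes were more abundant in cortex than in striatum of GLP controls. No count over the 23 or over all tested genes is given, so the 6 genes listed do not describe the group. The cortex minus striatum difference of the GLP control level was 4.05 for Prdm8, 3.72 for Tafa1, 2.48 for Syt17, 2.39 for Grp, 2.14 for Cadps2 and 1.30 for Grhl1, of which all but Grp were chosen after their values were seen. Their G9a striatal changes were 1.71, 1.21, 1.20, 2.69, 1.39 and 1.22, and their GLP striatal changes were 0.16, -0.51, 0.19, 0.66, -0.00 and 0.62, none of which passed. In GLP striatum the marker mean did not separate the genotypes, with 1.38 to 4.11 in mutants and 1.74 to 3.40 in controls. The part of the marker difference in the striatal changes of these 6 genes was not tested beyond the covariate, which is itself correlated with genotype in these 8 arrays.

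**Figure D4:**
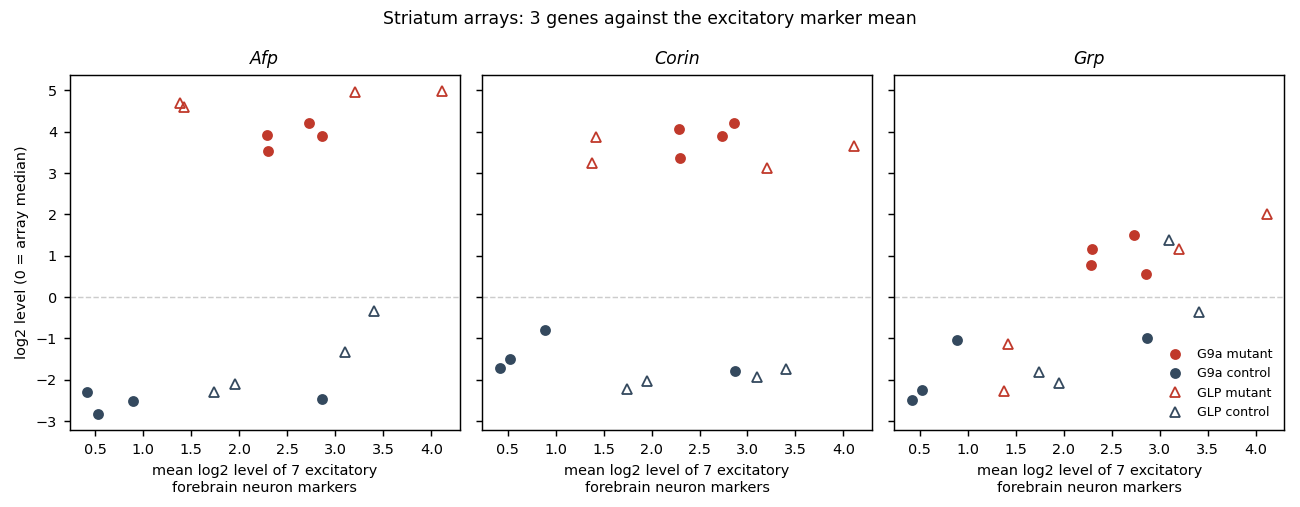
Log2 level of Afp, Corin and Grp (vertical axes) against the mean log2 level of 7 excitatory forebrain neuron markers (horizontal axes) in the 16 striatum arrays, filled circles for G9a and open triangles for GLP, red for mutants and blue for controls. Afp and Corin are separated by genotype in these arrays, also in G9a control 3 at 2.87. The other G9a controls lay at 0.42 to 0.89, below every G9a mutant (2.29 to 2.86). The G9a genotypes can thus be compared at a like marker level only through control 3. Grp is separated by genotype in the G9a arrays and not in the GLP arrays. It is above 0 only in arrays with a marker mean above 2. At such means it is still below 0 in G9a control 3 (-0.99) and in GLP control 4 (-0.36, at a marker mean of 3.40).

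The GLP arrays gave a test in other mice of the partner enzyme, with 4 mutants and 4 controls in each region. These mice were Camk2a-Cre; GLPfl/fl with GLPfl/fl littermates. The GLP change differed between regions for 107 of the 12380 genes (0.864%), and 36 of the 101 genes were among them, which is 35.6% of the 101 and 33.6% of the 107. For the pair hippocampus and hypothalamus, 44 of the 101 passed in G9a mice (0.388% of all genes tested), 37 higher and 7 lower in hippocampus. Of these 44, 41 had the same sign in GLP mice (93.2%, against 57.2% of all tested genes) and 13 also passed there (0.404% of all). For hippocampus and striatum, 61 passed (0.565% of all), 34 higher and 27 lower in hippocampus, 58 had the same sign in GLP mice (95.1%, against 61.8%) and 23 passed there (0.816% of all). For hypothalamus and striatum, 46 passed (0.436% of all), 10 higher and 36 lower in hypothalamus, 41 had the same sign (89.1%, against 52.6%) and 18 passed there (0.218% of all). No gene passed in both strains with opposite signs. The 3 pairs share regions and are not independent of each other.

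By pattern, 18 of the 25 genes with hippocampus above rose in GLP hippocampus, against 1.78% of all tested genes, and none rose in GLP hypothalamus (0.598%) or striatum (1.06%). Of the 23 with striatum above, 14 rose in GLP striatum, 2 in hypothalamus and none in hippocampus. In GLP hippocampus the choroid marker mean was 2.68 to 3.42 in mutants and 0.26 to 1.90 in controls, and the excitatory marker mean was 5.55 to 5.69 in mutants and higher in every control, up to 5.87. Neither overlapped, and their part in the GLP hippocampal counts was not tested. Of the 5 with hypothalamus above, 2 rose in GLP hypothalamus. The median GLP change was smaller than the median G9a change for both larger groups, at 0.99 against 1.78 in hippocampus and at 1.04 against 1.65 in striatum. The G9a medians are of genes chosen by those values, so the 2 are set side by side without a test.

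Adh6b, Afp, Corin and Nxf3 passed the interaction in GLP mice too, with differences in detail for Corin and Nxf3. Adh6b was at 2.23 to 2.80 in GLP hypothalamus mutants and at -2.00 to -1.47 in controls, and changed by 4.30 there, 0.31 in hippocampus and 0.37 in striatum (adjusted p of the GLP interaction 1.19e-10). Afp was at 4.61 to 4.99 in GLP striatum mutants and at -2.30 to -0.34 in controls, a change of 6.34, with 0.48 and 0.32 in hippocampus and hypothalamus (5.56e-08). Corin changed by 5.46 in GLP striatum and 0.73 in hippocampus, and also rose in hypothalamus, by 1.54 (6.44e-09), where its G9a change of 0.45 did not pass. Nxf3 changed by 4.57 in hypothalamus, 4.66 in striatum and 0.54 in hippocampus (4.32e-08), while in G9a mice hypothalamus lay above striatum. The differences between the strains were not tested.

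Ttn changed by 6.47, 2.84 and 1.35 in GLP striatum, hypothalamus and hippocampus, all of which passed (adjusted p of the GLP interaction 1.34e-07). Gpr50 changed by 3.70 in GLP hippocampus, where the mutants lay at 1.95 to 2.45 and the controls at -2.81 to -0.98, with 0.62 in hypothalamus and 0.30 in striatum (0.000222). Esr1 changed by 2.52 in GLP hippocampus, 0.47 in hypothalamus and 0.81 in striatum (0.0359). Gprc5d rose by 1.71 in GLP hippocampus, to -2.49 to -1.03, and so stayed below the array median in all 4 mutants (0.00839).

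Other genes kept their order of changes without passing the GLP interaction. Dnah1 changed by 1.83, 0.80 and 1.39 in GLP hippocampus, hypothalamus and striatum (adjusted p of the interaction 0.127), and Defb1 by 4.15, 1.43 and 3.15 (0.6). The spread of Defb1 in GLP hippocampus controls was wide, from -2.78 to 1.67. Myh8 changed by 1.34, 1.36 and 0.41 (0.728), and Fst by -1.26, -0.38 and -2.38 (0.0506).

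The genes whose pair difference had another sign in GLP mice were few. They were Plxdc1, Gpat3 and Dpp10 for hippocampus and hypothalamus, Plxdc1, Tafa1 and Lgi2 for hippocampus and striatum, and Prdm8, Syt17, Tafa1, Cadps2 and Dct for hypothalamus and striatum. Plxdc1, a plexin domain protein, changed by 1.55 in G9a hippocampus and 0.11 in GLP hippocampus. Tshz2 changed by 1.84 in G9a hippocampus and -0.31 in GLP hippocampus, and its GLP interaction had an adjusted p of 0.936.

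**Figure D5:**
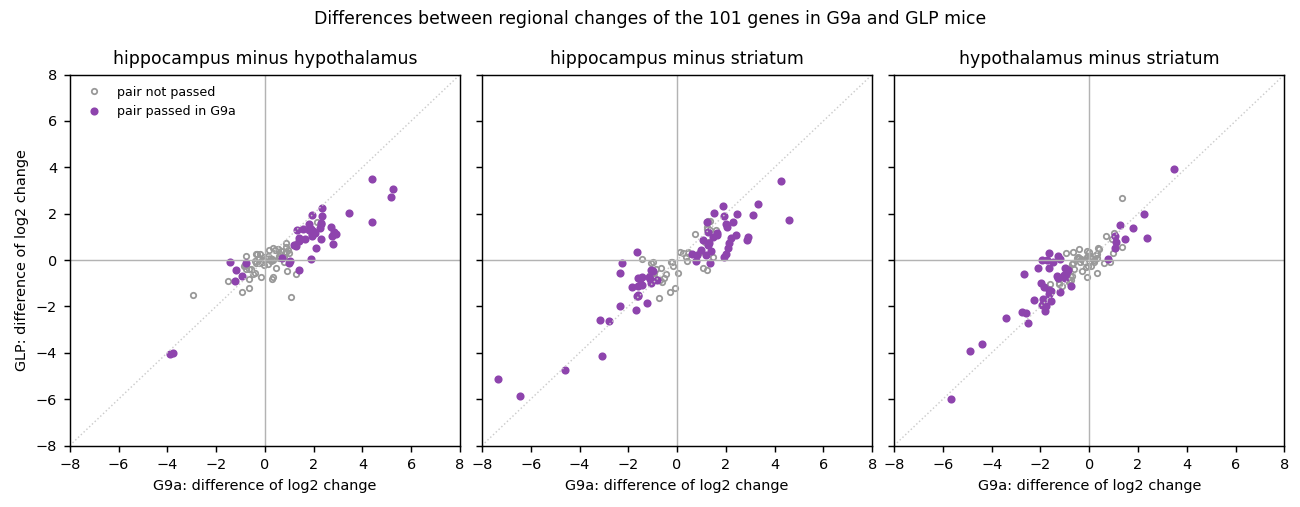
Difference of the mutant minus control log2 change between 2 regions in G9a mice (horizontal axes) and in GLP mice (vertical axes) for the 101 genes, 1 panel per pair of regions, with filled points where the pair passed in G9a mice. Of the filled points 41 of 44, 58 of 61 and 41 of 46 have the same sign in both strains, and most lie closer to 0 on the GLP axis than the dotted line of equal differences.

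Cortex and pooled striatal neurons gave values for the same genes outside the 3 regions, without a test. In G9a cortex, with 2 mutants and 2 controls, the change correlated over the 101 genes with that in hippocampus (Pearson's r = 0.68, against 0.58 over all tested genes), hypothalamus (0.51, against 0.34) and striatum (0.61, against 0.50). These are correlations across genes. The cortical change was 3.37 for Afp, 0.72 for Corin, 2.92 for Gpr50, 1.96 for Mettl24, -0.01 for Gprc5d and 0.22 for Adh6b. Gprc5d and Adh6b were thus near 0 in cortex, while Afp and Gpr50 were not.

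RNA on polyribosomes of medium spiny neurons, the main neurons of striatum, was measured after deletion of G9a by Drd1-Cre or Drd2-Cre, with 3 pools of mutants and 3 of controls for each. The controls carried the floxed alleles and the ribosome tag without Cre. Afp was higher in mutants by 6.17 ± 0.60 (SE) in Drd1 neurons and by 6.65 ± 0.51 in Drd2 neurons. Corin differed by 2.69 ± 1.53 and 2.64 ± 0.59, and Ttn by 1.76 ± 1.04 and 2.91 ± 0.43. Serpinb5 differed by 2.11 ± 0.86 and 2.51 ± 0.49. Gprc5d, which did not pass in striatum, differed by -0.09 ± 0.09 and -0.03 ± 0.05, and Gpr50 by -0.21 ± 0.36 and -0.32 ± 0.40. Grp differed by -0.76 ± 0.91 and -0.12 ± 0.77, beside its rise of 2.69 in whole striatum.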

How the data were processed

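RNA was measured on mouse expression arrays with 45101 probe sets. The deposited values are intensities on a linear scale that the authors normalised with GCRMA, per the submitters' processing notes, and each array has a median of 1. A pseudocount was not used, and the log2 of each intensity was taken. Each of 18193 genes was represented by its brightest probe set over the 23 arrays. Genes above the array median in at least 3 of the 23 arrays were tested, and 12380 passed. R 4.3.3 and limma 3.58.1 fitted 6 group means with an intensity trend and 17 residual degrees of freedom. The moderated F test of 2 differences between regional changes gave the 101 genes, at a Benjamini-Hochberg adjusted p of 0.05. On simulated data with 200 changed genes of 12380, changes of 2 log2 units were recovered in 99% and changes of 1 in 61%, and 4.19% of calls were false. The simulated noise was independent between arrays, with the same SD of a gene in every array. The real arrays differed in spread and some same-numbered arrays correlated, so these rates may not hold for them. The number of arrays limits the precision.

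The genes and lists were chosen with earlier results of these data known. Named were the 12 genes of smallest p, up to 6 with the largest difference in each direction for each pair of regions, up to 4 of each list, and Ehmt1, Ehmt2 and Camk2a, leaving out clone names. Alternatives were other filters, normalisations, gene summaries, covariates and arrays left out. By Xist, number 2 did not mark 1 mouse among the controls. Xist was -1.50 in hippocampus control 2, and 6.02 and 6.44 in control 2 of hypothalamus and striatum. For the other numbers, whether they pair the arrays is not settled. Deviations of same-numbered arrays of 1 region correlated above 0.1 in 7 of 11 cases, and those of 1 genotype in 15 of 22, so not every pair did. Arrays that shared only the number, with another region and genotype and so from different mice, did so in 12 of 22. The main fit has no block.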

Additional observations from a re-analysis of the deposited data

Results flagged for a closer look

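The change differed between regions for 101 genes. For the 12 of smallest p the largest difference between 2 regional changes, on the log2 scale, was as follows. Hippocampus minus striatum was -6.45 for Afp, 4.57 for Gprc5d and -7.34 for Ttn. Hippocampus minus hypothalamus was -3.91 for Nxf3, 1.91 for Dnah1, 4.40 for Mettl24, 5.16 for Defb1, -3.75 for Adh6b, 5.25 for Gpr50 and 3.43 for Esr1. Hypothalamus minus striatum was -4.88 for Corin and -3.40 for Cyp2c23.

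In 8 of 100 combinations of a gene and a group of 4 arrays, 1 array lay far from the other 3 by Dixon's criterion, which chance meets in about 1 of 20. Gprc5d was at -3.06 in hypothalamus mutant 4, Cyp2c23 at -2.47 in hippocampus mutant 4 and Nxf3 at 1.33 in hypothalamus mutant 1. Adh6b was at -3.06 in striatum control 2, Esr1 at 0.03 in striatum control 3 and Grp at 5.57 in hippocampus mutant 4. Ehmt1 was at 2.40 in hypothalamus control 1 and Ehmt2 at 4.77 in striatum control 3.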

How the results depend on the processing

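In each fit run, every one of the 101 genes that was tested there kept the sign of its largest regional difference (72 were tested with a mean above 0 as the filter, 88 with a filter at 1 and 89 with the mean of probe sets), and 63 passed in all of the 23 fits without 1 array in which they were tested. Those fits gave 83 to 422 genes for the interaction, 35 to 224 for hippocampus minus hypothalamus, 50 to 103 for hippocampus minus striatum and 37 to 347 for hypothalamus minus striatum. The regional changes ranged over 131 to 283 in hippocampus, 58 to 1608 in hypothalamus and 174 to 395 in striatum. The highest counts came without hypothalamus mutant 2, and without striatum control 3 the hypothalamus minus striatum count was 82. Fitting all 59 whole-tissue arrays gave 187 genes, with 83 and 87 for the pairs with hypothalamus and 345 and 303 for hippocampus and hypothalamus. With a mean above 0 as the filter 65 passed, with 22 and 38 for the pairs with hippocampus and 56 for hypothalamus. A filter at 1 gave 29 for hippocampus minus hypothalamus. With low values set to the array median 164 passed, with 73, 113 and 88 for the pairs, and Serpinb5, Ido2, Tnnt2, Fbp1 and Grp were lost. With array weights 1749 passed, with 1359, 274 and 1547 for the pairs and 617, 2714 and 1152 for the regions. The other filters, quantile normalisation, no trend and the mean of probe sets kept the interaction count within 84 to 148. With the excitatory marker mean as a covariate, chosen after the data were seen, 57 passed, with 25 and 22 for the pairs with striatum and 102 for striatum. The cause of these shifts was not tested.

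With a replicate block by number within genotype 104 genes passed, 85 of the 101 among them, and the regional changes fell to 110, 41 and 131. With a block by number alone 113 passed, 92 of the 101 among them. By Xist, number 2 joined arrays of different mice among the controls, so these blocks do not stand for single mice there. For the other numbers pairing is not settled. Of 31 named genes among the 101, 18 passed in every fit in which they were tested. The number of arrays and signals near the floor limit what can be called.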
